A study of Mus musculus with 8 samples.

Results

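The genes described here are named for nuclear subunits of the mitochondrial respiratory chain (complexes I to IV) and of the ATP synthase (complex V). They were chosen by gene name on the array: names beginning with Nduf (assembly factors left out), Uqcr, Cox4i, Cox5, Cox6, Cox7, Cox8 or Atp5, together with Sdha, Sdhb, Sdhc, Sdhd and Cyc1. This gave 87 of the 34836 gene names on the array, read by 127 of 55681 probes. By complex, 36 belonged to complex I, 4 to complex II, 9 to complex III, 20 to complex IV and 15 to complex V. The remaining 3, the pseudogene Atp5c1-ps and the genes of the related proteins Atp5s and Atp5sl, carry related names. They were kept apart from the complexes but are included in counts and medians over the whole list. Of the 87 genes, 84 had a probe that cleared the background on all arrays of 1 or more nuclei, and they were tested among 27425 genes. The filter hardly selected among those tested, since 83 of the 84 cleared it on all 8 arrays.

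Neurons were profiled from the ventromedial nucleus (VMH, 3 arrays), the dorsomedial nucleus (DMH, 3 arrays) and the arcuate nucleus (Arc, 2 arrays) of the mouse hypothalamus. Every array came from 2-month-old female mice carrying both Nkx2-1-CreERT2, a tamoxifen-activated recombinase expressed from the gene of the transcription factor Nkx2-1, and the ROSA-loxSTOPlox-ZsGreen1 reporter, after tamoxifen. Green neurons of each nucleus were cut out by laser and pooled. By their labels the groups differ in nucleus only, and none is untreated. The labels do not tie arrays to animals, and p-values therefore measure the spread between these pooled samples, which may be partly technical and is too small if samples of a nucleus share an animal. In such pools, fewer cells of a type and less RNA per cell cannot be told apart.

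Complex I takes electrons from NADH and complex II from succinate, complex III passes them to cytochrome c, and complex IV (cytochrome c oxidase) hands them to oxygen. Complexes I, III and IV pump protons across the inner membrane, and the ATP synthase uses the return flow to make ATP, on which firing neurons depend. Most subunits are encoded in the nucleus and made by nearly all cells, while several small subunits of complex IV also exist as tissue-restricted isoforms.

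The arrays were similar in quality, with 72.4% to 78.7% of probes well above background. The 75th percentile of signal was 1866 to 2036 in VMH, 2107 to 3042 in DMH and 1806 to 1818 in Arc. Levels are given as log2 signal relative to that percentile of the same array. They can be compared between arrays for one probe, not between probes. DMH replicate 1 was the brightest array, and the respiratory genes scattered most on it: it held the highest value of all 8 arrays for 24 of the 84 genes and the lowest for 19. The interquartile width of the genes' deviations from the nucleus's other arrays was 0.63 on that array, against 0.20 to 0.40 on the others. Results are therefore also given without it where it matters.

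The 8 neuron markers were all measured. Their median level per array was 2.53 to 2.66 in VMH, 2.29 to 2.81 in DMH and 1.86 to 1.94 in Arc, so that VMH and DMH overlapped, with DMH replicate 1 highest, and Arc lay below both. Their mean was 3.18 to 3.20 in VMH, 2.42 to 2.45 in DMH and 2.23 to 2.25 in Arc, a difference between VMH and DMH to which Nefl and Nefm contributed most. The neurofilament genes Nefl (log2 difference 2.28 ± 0.27 SE) and Nefm (2.18 ± 0.33) were higher in VMH than in the mean of Arc and DMH, with adjusted p of 0.0118 and 0.0249 in limma. The synaptic calcium sensor Syt1 was lower in Arc (-1.48 ± 0.17, adjusted p = 0.0156). Oligodendrocyte markers averaged -0.84 to 0.16 in VMH, -0.64 to -0.24 in DMH and -1.26 to -0.74 in Arc, and tanycyte and ependymal markers (6 of 8 measured) -1.38 to -1.32 in VMH, -2.52 to -1.75 in DMH and -1.35 to -0.99 in Arc. Of the tanycyte and ependymal markers, Crym was higher in VMH (1.84 ± 0.29, adjusted p = 0.0297) and Col23a1 lower in DMH (-1.83 ± 0.28, adjusted p = 0.0356). The part of these marker levels in the results below was not tested.

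The clearest differences lay in a pair of complex IV subunits with tissue-restricted expression. Cox6b2, known as the testis isoform of subunit 6B, and Cox6a2, known as the heart and muscle isoform of subunit 6A, were low in VMH on all 3 arrays, whereas their widely expressed counterparts Cox6b1 and Cox6a1 were not. Because these genes belong to isoform pairs, the first 30 bases of the 60-base probe that read each one are shown, with the position of the whole probe in mm9, as the array files give it. The probe pairs shared no run longer than 6 bases for Cox6b2 and Cox6b1 and 4 bases for Cox6a2 and Cox6a1. Only the probes were compared with each other, not a probe with the partner's transcript. Short shared runs therefore cannot tell whether a probe also reads the partner's RNA. The Cox6b1 position spans more than the probe's length.
Cox6b2 (chr7:4703488-4703547, minus strand): ggaactttcccgggcaaaatatgaccttgc
Cox6b1 (chr7:31409575-31411071, minus strand): aggagtcaggatggctgaagacatcaagac
Cox6a2 (chr7:135349160-135349219, minus strand): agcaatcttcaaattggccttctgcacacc
Cox6a1 (chr5:115795726-115795785, minus strand): ggaccacgaaaaccctttggatgctaagct

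Cox6b2 stood at -2.82, -2.51 and -2.72 on the VMH arrays, at -0.21, -0.91 and -0.09 on the DMH arrays, and at -0.73 and -1.78 on the Arc arrays. All VMH arrays lay below all others, and the DMH and Arc ranges overlapped. The log2 difference of VMH from the mean of Arc and DMH was -1.85 ± 0.30 (SE), a 3.62-fold lower level, with an adjusted p of 0.0316 (limma, Benjamini-Hochberg over all genes tested). It was the only respiratory gene past the threshold of 0.05 in that comparison, in which 0.47% of all genes were called lower and 0.872% higher. Against DMH alone it was 4.85-fold lower in VMH (-2.28 ± 0.33, adjusted p = 0.0238). The call against the mean of Arc and DMH was lost in 8 of the 20 alternatives, namely without any 1 of the VMH arrays, DMH replicate 1, DMH replicate 3 or Arc replicate 1, with the replicate block (adjusted p = 0.074) and with no filter on dim probes (0.0559), while the difference stayed between -2.12 and -1.25. The call against DMH was lost in 6, namely without any 1 of the VMH arrays, DMH replicate 1 or DMH replicate 3 (adjusted p up to 0.097) and with the replicate block (0.0576).

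Cox6a2 stood at 0.29, 0.34 and 0.31 on the VMH arrays, at 1.37, 1.93 and 1.56 on the DMH arrays, and at 1.21 and 0.87 on the Arc arrays. The nuclei did not overlap, with VMH lowest, Arc between and DMH highest, and the VMH arrays differed by less than 0.05 from each other. VMH was 2.48-fold lower than DMH (log2 difference -1.31 ± 0.21 SE, adjusted p = 0.0337 in limma). Cox6b2 and Cox6a2 were the only respiratory genes called in VMH against DMH, where 0.441% of all genes were called lower and 0.788% higher. Against the mean of Arc and DMH the Cox6a2 difference was -1.02 ± 0.19 and just missed the threshold (adjusted p = 0.0531). With DMH set against the mean of Arc and VMH, it was 0.95 ± 0.19 (adjusted p = 0.0821), and Cox6b2 was 1.56 ± 0.30 (adjusted p = 0.0754). The Cox6a2 call against DMH was lost under 10 of the 20 alternatives, among them leaving out any 1 array of VMH or DMH or Arc replicate 1, with the difference between -1.43 and -1.15 throughout.

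The counterparts were not lowest in VMH. Cox6b1 stood at 3.88, 4.48 and 4.22 on the VMH arrays, at 3.14, 4.09 and 4.18 on the DMH arrays and at 3.72 and 4.05 on the Arc arrays, so that the nuclei overlapped (VMH against the mean of the others 0.35 ± 0.29 SE, adjusted p = 0.685). Cox6a1 stood at 3.52, 3.76 and 3.86 on the VMH arrays, at 3.40, 3.36 and 3.31 on the DMH arrays and at 2.85 and 3.09 on the Arc arrays. Its nuclei were separate and in the order VMH, DMH, Arc, yet the difference of 0.55 ± 0.16 did not pass the limma test (adjusted p = 0.204). The difference between each isoform pair was not tested.

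**Figure D1:**
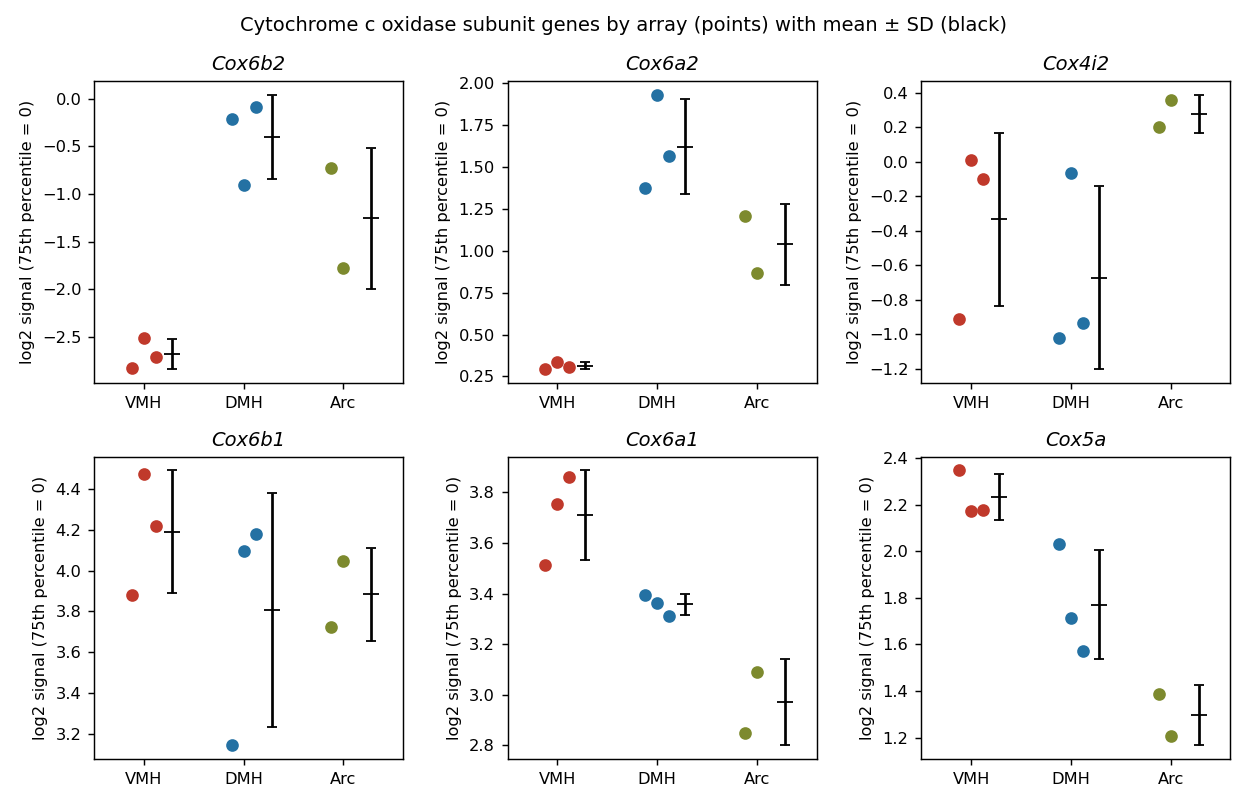
Log2 signal relative to the array's 75th percentile (vertical axes, one scale per gene) for 6 cytochrome c oxidase genes in VMH, DMH and Arc; coloured points are arrays, black marks the mean and SD. Cox6b2 and Cox6a2 lie lowest on the 3 VMH arrays, Cox4i2 lies highest on the 2 Arc arrays, and Cox6a1 and Cox5a descend without overlap over VMH, DMH and Arc.

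Myh7, a slow muscle and heart myosin, was also measured, because Cox6a2 and Cox7a1 are muscle isoforms. It was higher in VMH (2.38 ± 0.30 SE, adjusted p = 0.014 in limma), opposite to Cox6a2. The other muscle markers did not go with it: of the 5 measured of 6 (Mb was not), 3 lay above 0 in VMH against the mean of the others, with a list median of 0.10, and only Myh7 was called. Their median per array was -0.70 to 0.07 in VMH, -1.68 to -0.89 in DMH and -0.56 and -0.60 in Arc, so that VMH and Arc overlapped. Astrocyte markers, 7 of 8 measured (Gja1 was not), averaged -0.18 to 0.41 in VMH, 0.59 to 0.89 in DMH and -0.31 to 0.37 in Arc. Thus they were highest on the DMH arrays, where Cox6b2 and Cox6a2 also averaged highest, and the astrocyte connexin gene Gjb6 was higher in DMH (1.19 ± 0.18, adjusted p = 0.0356). The part of astrocyte RNA in the isoform levels was not tested.

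The other alternative isoforms of complex IV differed less or more erratically. Cox4i2, known as the lung isoform of subunit 4, stood at 0.20 and 0.36 on the Arc arrays, against -0.91, 0.01 and -0.10 in VMH and -1.02, -0.06 and -0.94 in DMH. It was the only respiratory gene with both Arc arrays above all others, where 10% of all genes showed this, and its difference in Arc of 0.78 ± 0.34 (SE) did not pass (adjusted p = 0.324). Its counterpart Cox4i1 averaged 5.02 ± 0.09 in VMH, 4.81 ± 0.11 in DMH and 4.94 ± 0.06 in Arc (SD).

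Ndufa4l2, a hypoxia-inducible relative of Ndufa4, scattered from -2.59 to -0.95 in DMH alone, against -2.004 to -1.683 in VMH and -3.15 and -2.36 in Arc. Ndufa4, first assigned to complex I and now counted with complex IV, was steadier: it averaged 1.63 ± 0.18 in Arc, against 2.26 on each VMH array and 2.18 ± 0.09 in DMH (SD). Its Arc difference was -0.59 ± 0.17 (SE, adjusted p = 0.175 in limma). Cox7a1, the muscle isoform of subunit 7A, ranged from -0.41 to 0.84 over the Arc arrays alone and overlapped between all nuclei. Its widely expressed counterpart Cox7a2 averaged 2.99 ± 0.02 in VMH, 2.97 ± 0.26 in DMH and 2.49 ± 0.10 in Arc (SD).

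Cox7a2l, a relative of subunit 7A that helps complexes III and IV associate, differed little, at 3.50 ± 0.04 in VMH, 3.57 ± 0.14 in DMH and 3.64 ± 0.08 in Arc (SD). The isoform genes Cox7b2 and Cox8c were not well above background on any array, and Cox8b was so only on 1 DMH array and 1 Arc array. These were the 3 genes left untested. Cox8a, the common counterpart of Cox8b and Cox8c, was well above background on all arrays. Its levels were 5.84, 5.90 and 5.97 in VMH, 5.38, 5.68 and 5.60 in DMH, and 5.61 and 5.63 in Arc.

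Beyond the isoforms, the respiratory genes as a list lay slightly higher in VMH and slightly lower in Arc, without any single gene passing the test. The median difference of VMH from the mean of Arc and DMH was 0.25 over the 84 genes, against 0.01 over all genes, and 72 of the 84 lay above 0, as did 50.7% of all genes. No respiratory gene was called higher in VMH, and 11 had an unadjusted limma p under 0.05 in that direction, where 7.24% of all genes did. In the opposite direction 2 did, where 5.9% of all genes did. The list median per array was 2.88, 2.97 and 2.98 in VMH, 2.81, 2.73 and 2.72 in DMH and 2.64 and 2.45 in Arc, so the 3 nuclei did not overlap. The neuron markers given above were lowest in Arc by mean and by median, whereas their order in VMH and DMH depended on which was taken. Their part in the shift was not tested.

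Arrays of VMH lay above all others for 23 of the 84 genes, or 27.4%, where 5.46% of all genes did so, and below all others for Cox6b2 and Cox6a2 only, where 4.02% did so. Without DMH replicate 1, these counts were 36 and 2, against 7.59% and 6% of all genes. VMH had the highest mean of the 3 nuclei for 64 of the 84 genes, against 30.9% of all genes, and Arc had the lowest for 63, against 32.8%. The order VMH, DMH, Arc held for 48 genes.

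The VMH shift was of like size in most complexes. The median difference was 0.25 in complex I, 0.28 in complex III, 0.25 in complex IV and 0.26 in complex V, with 0.01 in the 4 genes of complex II. By the brightest probe of each gene, all 15 genes of complex V lay above 0, the smallest at 0.07. So did 33 of 36 in complex I and 7 of 9 in complex III. A further probe of Atp5g1 in complex V lay below 0. In complex IV, 11 of the 12 genes that are not alternative isoforms lay above 0, with a median of 0.27, against 2 of the 5 alternative isoforms tested, with a median of -0.14. Within slide rows, each holding 4 arrays, the list median in VMH was 0.27 in row 1 and 0.23 in row 2, against 0.04 and -0.02 over all genes. The Cox6b2 differences there were -1.55 and -2.26.

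**Figure D2:**
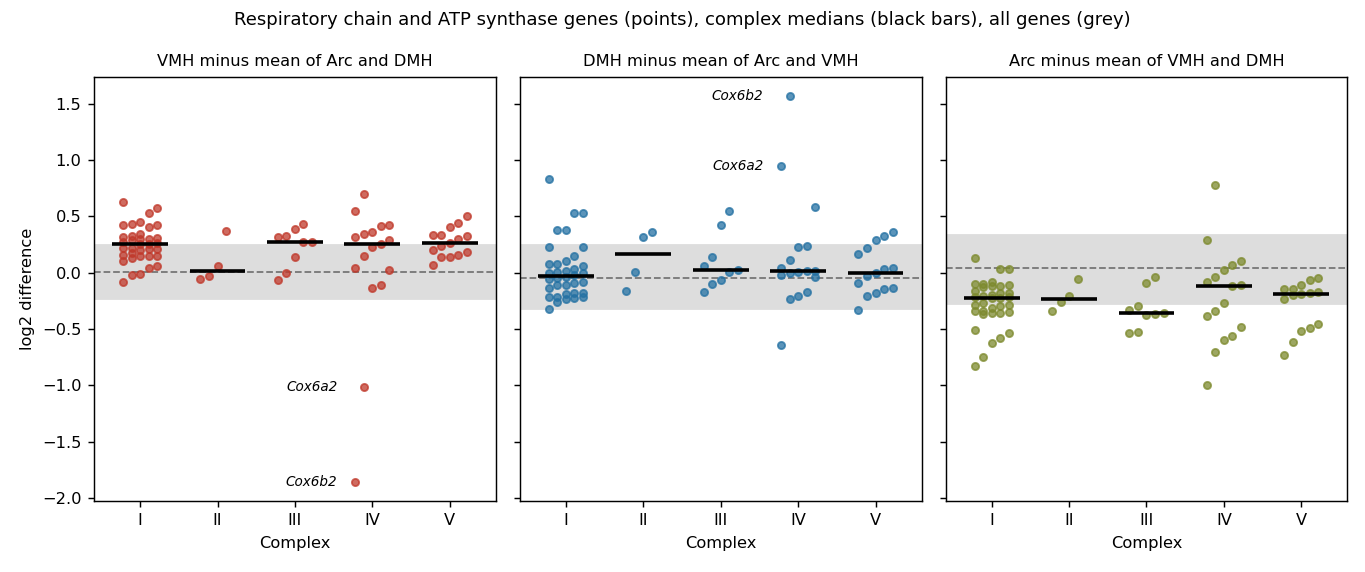
Log2 difference of each nucleus from the mean of the other 2 (vertical axis) for the tested genes of complexes I to V (horizontal axis); points are genes, black bars complex medians, the dashed line and grey band the median and quartiles of all genes. In VMH all 15 complex V genes, each by its brightest probe, lie above 0 while Cox6b2 and Cox6a2 lie far below. In Arc the medians of all 5 complexes lie below that of all genes.

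Among complex I genes, the largest difference in VMH was that of Ndufa9, an accessory subunit beside the ubiquinone site. It stood at 2.47, 2.71 and 2.67 in VMH, at 2.31, 2.15 and 2.13 in DMH and at 1.69 and 1.87 in Arc. Its nuclei did not overlap, but the difference of 0.63 ± 0.16 (SE) did not pass (adjusted p = 0.139). Ndufb9, an accessory subunit of the membrane arm, stood at 4.07, 4.11 and 4.44 in VMH, at 3.53, 3.67 and 3.85 in DMH and at 3.72 and 3.46 in Arc (0.57 ± 0.18, adjusted p = 0.222). VMH lay above the others, and DMH and Arc overlapped. Ndufab1, the mitochondrial acyl carrier protein, differed by 0.53 ± 0.19 (adjusted p = 0.293), and its further probe differed by -0.02. Of the 28 respiratory genes read by more than 1 kept probe, 8 had a probe of opposite sign in VMH, Ndufab1 among them.

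All 7 core subunits of complex I that the nucleus encodes, which are conserved from bacteria, lay above 0 in VMH, with a median of 0.29, and 26 of the 29 accessory subunits did, with a median of 0.22. Ndufc2, an accessory subunit of the membrane arm, was among the few below 0 (-0.09 ± 0.35). Its DMH level rested on 1 array, with 3.45 on DMH replicate 1 against 1.98 and 2.08 on the others, and its VMH difference was 0.15 without that array. Ndufv3, a small subunit of the NADH-binding module, lay higher on all DMH arrays, at 4.03, 3.94 and 4.29, than in VMH, at 3.72, 3.61 and 3.81, or Arc, at 3.54 and 3.24. The DMH difference of 0.53 ± 0.17 did not pass (adjusted p = 0.209), and its further probes differed by 0.37 and, in the other direction, -0.12.

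Complex II is also the succinate dehydrogenase of the citric acid cycle, and its 4 genes did not shift as one. Sdhb, the iron-sulfur subunit, stood at 2.98, 2.98 and 3.23 in VMH, at 2.50, 2.68 and 2.94 in DMH and at 2.80 and 2.56 in Arc, with all VMH arrays highest (0.37 ± 0.18 SE, adjusted p = 0.432 in limma). Its further probe differed by -0.15. Sdha, the flavoprotein that oxidises succinate, and the membrane anchors Sdhc and Sdhd differed in VMH by -0.03, 0.06 and -0.06. For each of these 3 genes DMH replicate 1 was the highest array.

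In complex III, the core-protein gene Uqcrc1 stood at 3.65, 3.82 and 3.59 in VMH, at 3.11, 3.53 and 3.43 in DMH and at 3.22 and 3.09 in Arc. VMH lay above the others by 0.43 ± 0.17 (SE, adjusted p = 0.335 in limma). Its partner Uqcrc2 differed by 0.32 ± 0.15, and the small subunits Uqcr10 and Uqcrh, both with all VMH arrays highest, by 0.27 ± 0.16 and 0.14 ± 0.15. Uqcrb, a subunit that binds ubiquinone, behaved otherwise, with 2.76, 2.38 and 2.63 in DMH above 2.19, 2.20 and 2.27 in VMH and 1.96 and 1.77 in Arc. Its DMH difference was 0.55 ± 0.16 (adjusted p = 0.189), and its further probes differed by 0.41 and 0.72. Uqcrfs1, the Rieske iron-sulfur protein, was high on DMH replicate 1 alone, at 2.50 against 1.13 to 1.54 on all other arrays.

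Cox5a, a nuclear subunit of complex IV on its matrix side, had the largest positive VMH difference of the 84 genes. It stood at 2.35, 2.17 and 2.18 in VMH, at 2.03, 1.71 and 1.57 in DMH and at 1.39 and 1.21 in Arc. The nuclei did not overlap, and the difference of 0.70 ± 0.18 (SE) gave an adjusted p of 0.135.

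In the ATP synthase, Atp5g1, Atp5g2 and Atp5g3 encode the same c-ring subunit with different import signals. Atp5g1 stood at 5.72, 5.60 and 5.95 in VMH, at 5.14, 5.30 and 5.30 in DMH and at 5.49 and 5.29 in Arc, with VMH highest (0.44 ± 0.17 SE, adjusted p = 0.311 in limma). Its further probe differed by -0.44, so the gene has no settled direction. Atp5g2 and Atp5g3 differed by 0.07 ± 0.16 and 0.14 ± 0.20. The catalytic subunit gene Atp5b and the stalk gene Atp5o, both with all VMH arrays highest, differed by 0.30 ± 0.15 and 0.33 ± 0.15.

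Atp5d, the delta subunit of the central stalk, had the lowest p in Arc against the others. It stood at 2.22 and 2.09 in Arc, against 2.81, 3.02 and 2.89 in VMH and 2.79, 2.77 and 3.01 in DMH. Both Arc arrays lay below all others, while VMH and DMH overlapped, and the difference of -0.73 ± 0.18 (SE) gave an adjusted p of 0.13.

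Arc differed from the mean of VMH and DMH by a median of -0.24 over the 84 genes, against 0.04 over all genes, and 8 of the 84 lay above 0, against 53.6% of all genes. Both Arc arrays lay below all others for 26 genes, or 31.0%, where 6.64% of all genes did so. Of these, 11 of 36 tested belonged to complex I, 1 of 4 to complex II, 4 of 9 to complex III, 5 of 17 to complex IV and 5 of 15 to complex V. No gene of the 84 was called in Arc by limma, where 0.193% of all genes were called higher and 0.419% lower, and 10 had an unadjusted p under 0.05 and a lower level, against 7.07% of all genes. In the higher direction 0 did, against 8.68%. Without DMH replicate 1 the count of separate genes was 33, against 8.57% of all genes. The comparisons share arrays, and the differences of the 3 nuclei from the mean of the others sum to 0 for each gene, so the VMH and Arc shifts are not independent. Microglial markers averaged -0.22 to -0.06 in Arc, against -0.90 to -0.56 in VMH and -0.41 to -0.34 in DMH, and endothelial and mural markers (6 of 8 measured) averaged -1.61 to -1.56 in Arc, against -2.13 to -1.80 in VMH and -2.03 to -1.63 in DMH. By median instead of mean, both lists overlapped between Arc and DMH. The part of these cells in the shift was not tested.

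For DMH against the mean of Arc and VMH, the list median was 0.00, against -0.04 over all genes, and no gene was called by limma (0.368% of all genes were called higher and 0.474% lower). Of the 84 genes, 44 lay above 0, against 45.4% of all genes. At an unadjusted p under 0.05, 5 were higher and 0 lower, against 6.48% and 9.78% of all genes. DMH lay above all others for Ndufv3, Uqcrb and Cox6a2 only, a share of 3.57% beside 3.59% of all genes, and below all others for none, beside 5.65%. Without DMH replicate 1, 5 genes lay above all others and 1 below, against 6.32% and 7.65% of all genes.

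Between pairs of nuclei, the list medians were 0.16 for VMH minus DMH, 0.35 for VMH minus Arc and 0.16 for DMH minus Arc, against 0.04, -0.03 and -0.05 over all genes. All VMH arrays lay above both Arc arrays for 58 of the 84 genes, where 16.4% of all genes did so, and below them for Cox4i2, Cox6a2, Cox6b2 and Cox7a2l, where 18.4% did so. No gene was called in VMH against Arc (0.66% of all genes higher, 0.317% lower), with 11 higher and 2 lower at an unadjusted limma p under 0.05 (7.21% and 6.97% of all genes). Most of the 84 genes were thus separate between VMH and Arc, while none passed the limma test.

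Against DMH, all VMH arrays lay above for 26 genes, where 12.4% of all genes did so, and below for 4, where 9.17% did so. Without DMH replicate 1, these counts were 43 and 6, against 17.2% and 14.9% of all genes. Beyond the Cox6b2 and Cox6a2 calls, 7 genes were higher and 0 further genes lower at an unadjusted p under 0.05 (7.46% and 5.74% of all genes). All DMH arrays lay above both Arc arrays for 30 genes, where 13.5% of all genes did so, and below them for Cox4i2 alone, where 19.8% did so. No gene was called in DMH against Arc (0.244% of all genes higher, 0.175% lower), with 7 higher and 1 lower at an unadjusted limma p under 0.05 (6.8% and 9.84%).

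**Figure D3:**
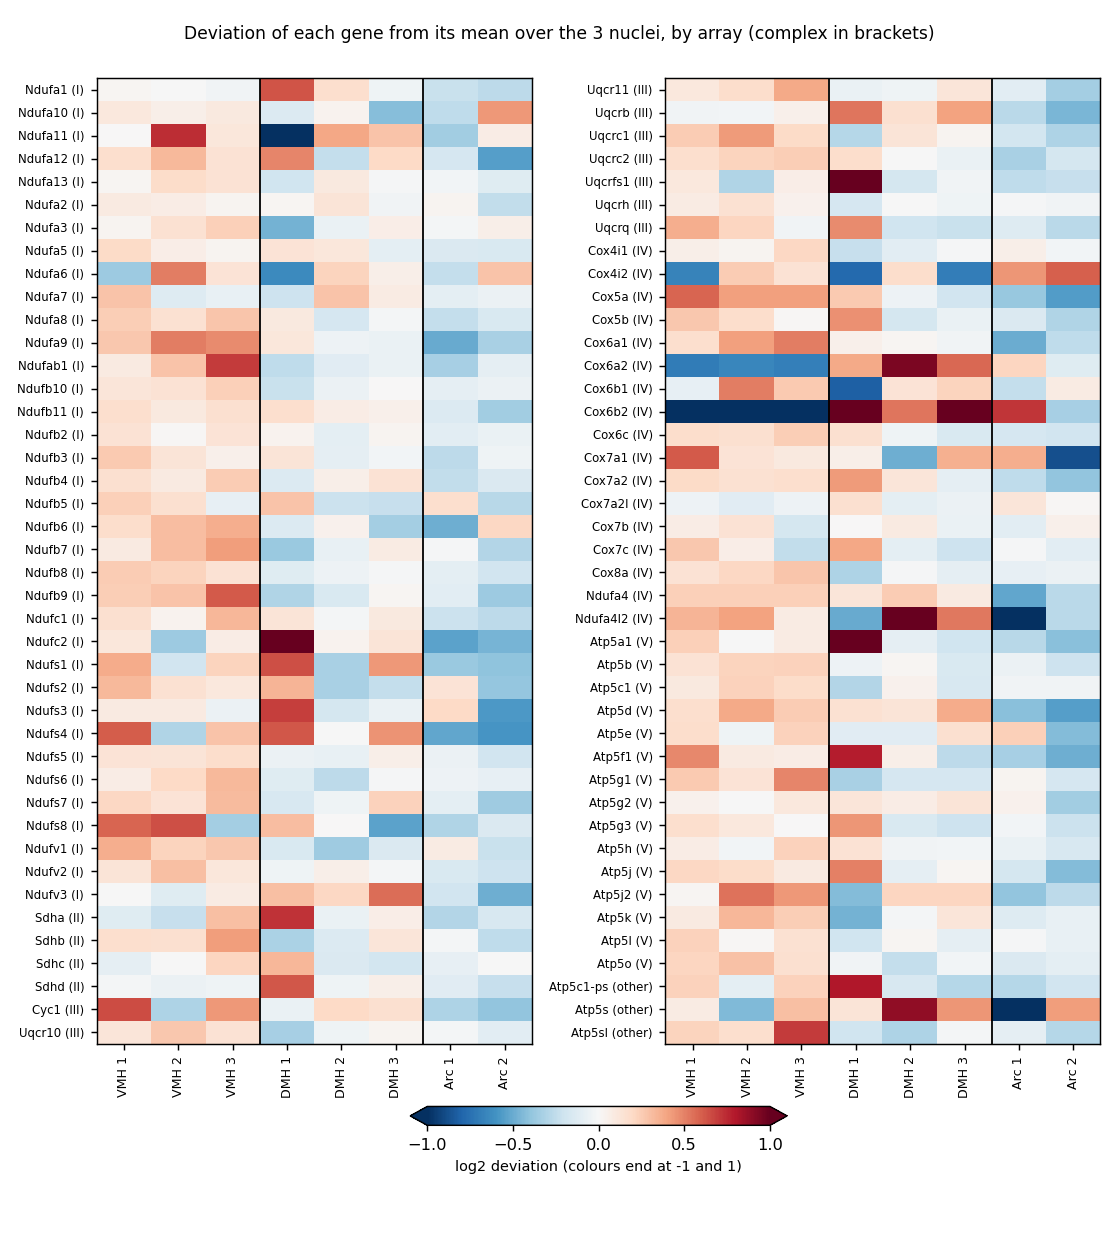
Log2 deviation of each of the 84 tested genes (rows, complex in brackets) from its mean over the 3 nuclei, by array (columns); red is above and blue below, and colours end at -1 and 1. VMH arrays are mostly red and Arc arrays mostly blue, Cox6b2 and Cox6a2 reverse this in VMH, and DMH replicate 1 holds both the highest value for 24 genes and the lowest for 19.

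Mitochondrial DNA encodes the remaining subunits, and their medians lay elsewhere. Over the 13 mitochondrially encoded subunit genes, the median difference was -0.05 in VMH, -0.16 in DMH and 0.23 in Arc, each against the mean of the others. None was called, and 10 of the 13 had their highest mean in Arc and 3 in VMH, where 39.4% and 30.9% of all genes did. The list median of the nuclear genes minus that of the mitochondrial genes was -1.95 to -1.41 in VMH, -1.95 to -1.40 in DMH and -2.24 and -2.39 in Arc. VMH and DMH overlapped, and both Arc arrays lay below all others. This shows unequal change between the lists and not which of them changed.

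In VMH and Arc, all genes of like brightness had, as a whole, smaller shifts, but not in DMH. Of the 84 genes, 41 fell in the brightest decile of all genes, where their median VMH difference was 0.25 and that of all genes 0.07. The medians in Arc were -0.20 for these 41 and 0.10 for all genes of the decile. In DMH they were -0.02 for these 41 and -0.17 for all genes of the decile. Beside equally bright genes, these 41 thus also lay higher in DMH. Cytosolic ribosomal protein genes, also bright, had a median of -0.23 in VMH and 0.25 in Arc over the 79 tested.

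**Figure D4:**
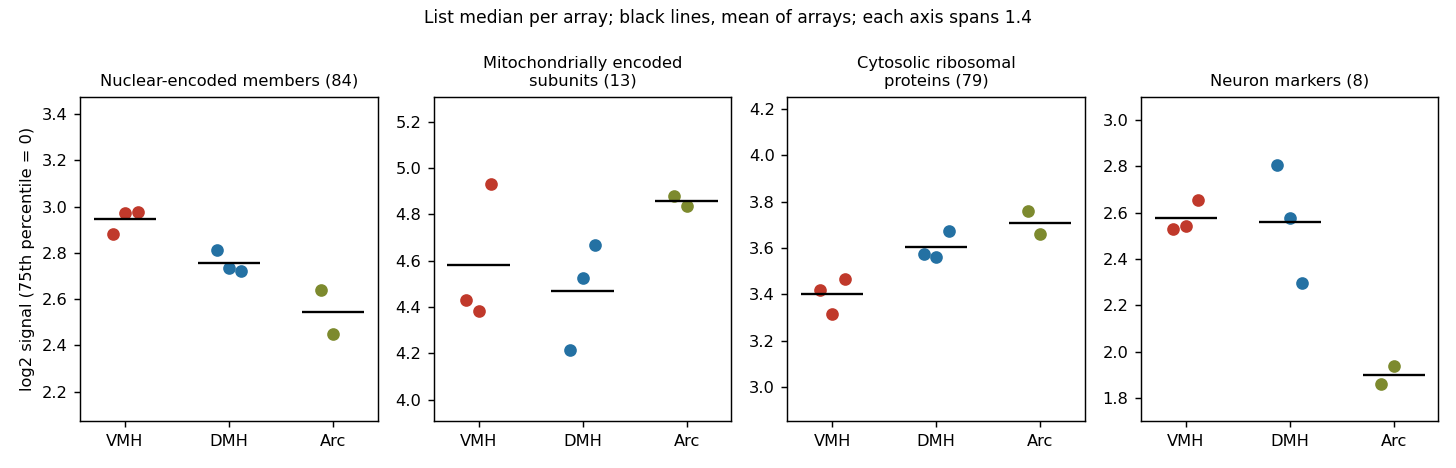
Median level of each list per array (log2 signal relative to the array's 75th percentile) in VMH, DMH and Arc; points are arrays, black lines their mean, and each axis spans the same width. The 84 nuclear-encoded genes descend over VMH, DMH and Arc without overlap, the neuron markers overlap between VMH and DMH and are lowest in Arc, and the mitochondrially encoded subunits and the cytosolic ribosomal proteins are highest in Arc on average.

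Other energy genes gave the following. For the citric acid cycle and pyruvate dehydrogenase, 14 of 17 genes lay above 0 in VMH and 3 of 17 in Arc, with medians of 0.20 and -0.36 and none called. For glycolysis the VMH median was 0.28 over 17 genes, close to the 0.25 of the respiratory genes, and 1 was called: Hk2, the hexokinase of insulin-responsive tissue, was lower in VMH (-1.21 ± 0.22 SE, adjusted p = 0.0477 in limma). For the proton-pumping V-type ATPase, which acidifies vesicles, the medians were 0.29 in VMH and -0.46 in Arc over 17 genes, and the neuronal subunit Atp6v1g2 was higher in VMH (1.07 ± 0.19, adjusted p = 0.0418). Of 46 genes of the large mitochondrial ribosomal subunit, Mrpl37 was higher in VMH (1.13 ± 0.19, adjusted p = 0.0378), with a list median of 0.11.

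Assembly factors and related lists had smaller medians in VMH. The VMH median was 0.05 over 12 factors of complex I and 0.15 over 26 factors of complexes II to V, against 0.22 and 0.24 in DMH, with none called. For import and cristae proteins the VMH median was 0.04 over 27 genes, and for metabolite carriers and uncoupling proteins 0.13 over 20. Regulators of mitochondrial biogenesis had a VMH median of 0.18 over 15 genes, electron carriers and entry points 0.10 over 14, and antioxidant enzymes 0.06 over 11. No gene of these lists was called in VMH, DMH or Arc against the others.

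Promoters were read for the 70 genes with an entry in RefSeq's promoter set (GRCm38.p6), from 250 bases before to 50 after the start, on both strands. Motifs were searched because factors that bind them are known regulators of respiratory genes. The NRF1 core (GCGCA, any base, then GCGC) occurred in 17 of 70, or 24.3%, against 5.19% of 27025 genes. The ETS core bound by GABP (CCGGAAG) occurred in 22.9%, against 9.93%, and the YY1 core (AAGATGGC) in 15.7%, against 3.19%. The half-site of estrogen-related receptors (TCAAGGTCA) occurred in 2 genes, or 2.86%, against 0.466%. By complex, the NRF1 core occurred in 7 of 32 genes of complex I, 6 of 14 of complex V and 1 of 14 of complex IV. No relation between a motif and a nucleus was tested.

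**Figure D5:**
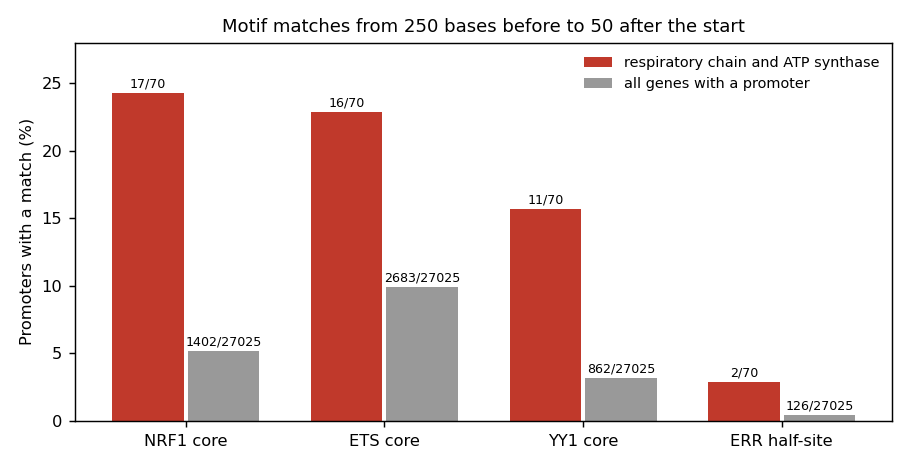
Share of promoters with at least 1 match (vertical axis, percent, from 0) to each of 4 motifs (horizontal axis) for the 70 respiratory genes (red) and for 27025 genes (grey), with counts above the bars. All 4 motifs were commoner among the respiratory genes, from 2.86% against 0.466% to 24.3% against 5.19%.

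The 250 bases before the start are shown for Cox6b2, which was lower in VMH, and for the widely expressed Cox6b1 and Cox6a1, 5′ to 3′ on the gene's strand, with motif matches in capitals. The capitals in Cox6a1 mark 2 NRF1 cores and an ETS core on the other strand, and those in Cox6b1 an ETS core on the other strand. Cox6b2 held none of the 4 motifs in this window. Cox6a2 had no entry in the promoter set and is not shown. A match or its absence is a description of these letters only.
Cox6b2 (chr7:4753095-4753344, minus strand, GRCm38.p6): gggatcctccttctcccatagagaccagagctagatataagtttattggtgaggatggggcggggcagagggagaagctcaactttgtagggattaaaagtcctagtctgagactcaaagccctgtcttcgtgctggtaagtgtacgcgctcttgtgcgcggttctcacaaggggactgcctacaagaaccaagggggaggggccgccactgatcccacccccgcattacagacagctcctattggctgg
Cox6b1 (chr7:30626115-30626364, minus strand, GRCm38.p6): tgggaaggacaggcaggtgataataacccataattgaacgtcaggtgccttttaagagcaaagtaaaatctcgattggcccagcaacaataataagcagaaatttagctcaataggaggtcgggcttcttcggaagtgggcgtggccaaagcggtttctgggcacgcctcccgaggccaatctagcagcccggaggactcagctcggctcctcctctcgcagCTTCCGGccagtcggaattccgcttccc
Cox6a1 (chr5:115348959-115349208, minus strand, GRCm38.p6): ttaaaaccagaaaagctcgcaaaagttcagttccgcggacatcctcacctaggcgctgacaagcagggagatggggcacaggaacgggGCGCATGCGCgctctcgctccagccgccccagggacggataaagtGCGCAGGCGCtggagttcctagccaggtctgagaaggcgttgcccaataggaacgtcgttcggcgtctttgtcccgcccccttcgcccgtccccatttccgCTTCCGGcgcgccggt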

How the data were processed

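Each sample was labelled with Cy5 and hybridised alone, and the 8 arrays lay on 1 slide scanned once. The deposited intensity values are red-channel spot signals, background-subtracted and detrended by the scanner software per the file headers, which the submitters' processing notes name as Agilent Feature Extraction 11.5.1.1. No normalization between arrays had been applied. The deposited 0 or 1 score per spot for being well above background, saturated or an outlier was also used, per the file headers.

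Signals were put on the log2 scale relative to each array's 75th percentile, taken over its 59305 spots other than controls, a step not made in the deposited files. Outlier spots were dropped and spots of one probe averaged. Probes were kept (41480) if they cleared the background on all arrays of 1 or more nuclei, and the brightest stood for its gene name. The main model in limma 3.58.1 had a term per nucleus, used all 8 arrays (5 residual degrees of freedom), and was followed by eBayes and Benjamini-Hochberg adjustment over all genes within a comparison (threshold 0.05). It ran in R 4.3.3, with data.table for joining. Promoters were searched and plots drawn in Python 3.11.15 using pandas 2.3.3, numpy 2.4.6 and matplotlib 3.10.9. The fit was tested on simulated data. The number of arrays limits the precision.

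The genes, lists, tests and most alternatives were chosen with earlier results of these data known. The lists of mitochondrially encoded subunits and cytosolic ribosomal proteins, the GC correction, the values without DMH replicate 1 and those within slide rows were added after seeing the data. Named genes are those past the threshold, the 2 highest and 2 lowest of each complex by moderated t in VMH, the isoform genes, and up to 3 per complex whose arrays of 1 nucleus lay above all others. Genes of other lists were named where past the threshold; Atp5d, Ndufa9 and Cox5a are also singled out by rank. Alternatives were normexp (offset 50), quantile normalization, the percentile over detected probes, no filter or a stricter one, floored signals, averaging over probes, eBayes made robust with a trend, weighting of arrays, replicate number or slide row in the model, and each array left out. A deposited table of the whole series was not used: each of its 8 columns of 55681 entries runs evenly (tolerance 1e-04) once 13 entries have passed. Its column medians were 10.1, 795.1, 2696, 197.8, -1711, 2335, -1671 and -431.9, and its scale, centring and direction stay unknown.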

Additional observations from a re-analysis of the deposited data

How the results depend on the processing

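The list medians for VMH (0.19 to 0.27), Arc (-0.31 to -0.22) and VMH minus Arc (0.30 to 0.38) kept their direction and size under all 20 alternatives. The count of genes highest in VMH, 64 in the main model, ranged from 49 to 66. That of genes lowest in Arc, 63 in the main model, ranged from 59 to 75. The median for DMH was 0.10 under quantile normalization and 0.10 with the GC correction, that for VMH minus DMH was 0.0464 under quantile normalization, and that for DMH minus Arc was 0.26 and 0.29 under these settings.

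The calls were less stable. In VMH against the mean of Arc and DMH, 2 genes were called (Cox6b2 and Cox6a2) under normexp, quantile normalization, a floor, the filter requiring all arrays, the mean of probes, trended and robust eBayes, array weights and the GC correction, and 0 without a filter on dim probes. In VMH against DMH, 1 was called (Cox6b2) without a filter and likewise 1 when slide row entered the model, where Cox6a2 had an adjusted p of 0.0837. In DMH, 1 gene (Cox6a2) was called with trended and robust eBayes and 1 (Cox6a2) with the GC correction, and in VMH minus Arc 1 (Ndufa9) with trended and robust eBayes. Leaving out each array in turn gave 0 to 1 calls in VMH, 0 to 2 in VMH against DMH and 0 to 1 in DMH, where Cox6b2 was called without Arc replicate 1. These fits held fewer arrays, and the cause of the changed calls was not tested.

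Same-numbered arrays of different nuclei deviated together, with correlations of 0.072 to 0.185 over 7 pairs. Differently numbered arrays lay below all of these, at -0.126 to 0.015. Deviations within a nucleus sum to 0, so these correlations are not independent. The labels do not say what same-numbered arrays share, and the main model held no pairing. Whether they share an animal or a batch was not tested. With the replicate block, 0 genes were called in VMH and 0 in VMH against DMH. Cox6b2 then had a limma adjusted p of 0.074 and 0.0576, and Cox6a2 0.0985 against DMH. No named call reversed its direction.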
